A study of Mus musculus with 9 samples.

Results

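The 7 genes described here encode the transporters that carry glucose and lactate across cell membranes of the retina, and the protein that brings the lactate transporters to the membrane. They were taken by symbol from the table of read counts per gene, in which all 7 were found among 48587 genes: Slc2a1 and Slc2a3 (GLUT1 and GLUT3), Slc16a1, Slc16a3, Slc16a6 and Slc16a7 (the monocarboxylate transporters MCT1, MCT4, MCT7 and MCT2) and Bsg (basigin). All 7 passed the filter on low counts in the 3 comparisons. RNAseq was performed on 9 samples, each a pool of 6 retinas of C57BL/6J mice aged 12 weeks. The 3 RVO samples came from eyes in which all large veins had been closed by laser after an intraperitoneal dose of 200 mg/kg eosin Y, a dye that sensitizes blood vessels to light. The 3 control samples came from the fellow eyes of such mice, which received as many laser spots between the large vessels, and both groups were collected 2 days after laser (d2). The 3 untreated samples came from eyes without laser, and the labels do not say whether these mice received eosin. Both laser groups therefore shared eosin, anaesthesia and laser burns of the retina. They differed in whether the laser was aimed at the large veins. In the comparison of RVO with control eyes, closure of the veins and a direct burn of the vein therefore cannot be told apart. The paper also reports that some of the closed veins re-opened over the following days.

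Photoreceptors break down most of their glucose to lactate even when oxygen is present, and they receive glucose from the choroid and the retinal vessels through GLUT1 on the pigment epithelium, the endothelium and the glia. GLUT3 is the glucose transporter of neurons. MCT1, MCT2 and MCT4 carry lactate, pyruvate and ketone bodies together with a proton, MCT4 is the form of cells that export much lactate, and MCT2 binds its substrates most tightly. MCT7, the product of Slc16a6, is known as a transporter of ketone bodies. Basigin is the chaperone without which MCT1 and MCT4 do not reach the membrane, and its photoreceptor form binds GLUT1.

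RVO samples held 21022997 to 28993921 counts, control samples 18897218 to 23419497 and untreated samples 12377572 to 15245869. Levels are given as CPM, the read count of a gene relative to the library total, after TMM scaling over the 9 samples. Differences are log2 fold changes with their standard error (SE) from edgeR's quasi-likelihood test on each pair of groups, and a gene was called at a Benjamini-Hochberg adjusted p under 0.01 over all genes tested. RVO replicate 2 stood apart from the other RVO samples. The chi-square per degree of freedom was 60.1 between RVO replicates 1 and 2 and 31.7 between replicates 2 and 3, against 9.84 between RVO replicates 1 and 3 and at most 10.01 in any pair of control or untreated samples. Results that turned on RVO replicate 2 are given with and without it. Each library pooled 6 retinas, so the p-values measure the spread between pools. Markers of rods, cones and Mueller glia were present in all samples. In bulk tissue, fewer cells of a type and less RNA per cell cannot be told apart.

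The start regions of 3 of the 7 genes (Slc2a1, Slc16a1 and Slc16a3) were in the RefSeq table used here. They are shown because the core of the hypoxia response element, ACGTG or GCGTG, is known from oxygen-regulated promoters, and because Slc2a1 and Slc16a3 were the transporters with the largest increases below. The 250 bases before the RefSeq start were searched on both strands, and the stretch from 40 bases before the first match to 2 bases after the last is printed 5′ to 3′ on the plus strand of GRCm38.p6, with the matches in capitals.
Slc2a1, chr4:119108644-119108715: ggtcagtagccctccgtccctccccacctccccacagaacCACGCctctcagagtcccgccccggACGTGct
Slc16a1, chr3:104638424-104638536: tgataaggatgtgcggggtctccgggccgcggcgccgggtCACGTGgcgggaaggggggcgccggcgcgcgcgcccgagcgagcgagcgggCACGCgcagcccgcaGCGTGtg
Slc16a3, chr11:120949000-120949059: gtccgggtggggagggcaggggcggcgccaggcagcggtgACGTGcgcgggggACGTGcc

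Slc2a1 held 1 GCGTG on the minus strand, 61 to 57 bases before the start, and 1 ACGTG on the plus strand, 36 to 32 bases before it. Slc16a3 held 2 copies of ACGTG on the plus strand, 27 to 23 and 14 to 10 bases before the start. Slc16a1 held ACGTG once on each strand at a single palindrome, where the copies overlap, 200 to 195 bases before the start, and GCGTG on the minus strand at 149 to 145 and on the plus strand at 134 to 130 bases. Of all 32851 promoter windows of this length, 16.6% held ACGTG, 28.2% held GCGTG and 38.6% held either, so such matches are common. The distances hold for the RefSeq start only. In the GENCODE annotation, Slc2a1 and Slc16a3 start earlier, at 119108711 and 120948480. Of the printed stretches, 5 bases in Slc2a1, 7 in Slc16a3 and 0 in Slc16a1 lie in annotated exons. The G and C content of the 3 windows was 66.4% in Slc2a1, 76.4% in Slc16a1 and 73.6% in Slc16a3. Slc16a1, with 4 matches, was lower in RVO than untreated eyes, and Slc2a1 and Slc16a3, with 2 each, were higher.

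Slc2a1, Slc16a3 and Bsg rose in RVO eyes relative to untreated eyes, and Slc16a1, Slc16a6 and Slc16a7 fell. Of the 7 genes, 3 were called higher and 3 lower in RVO against untreated eyes, where 27.4% of all 16380 genes tested were called higher and 24.6% lower. In control against untreated eyes 3 were again called higher and 3 lower, against a background of 27.2% higher and 25.2% lower among 16066 genes. The 2 comparisons share the untreated samples. In RVO against control eyes 1 gene, Slc2a1, was called higher and 0 were called lower, where 2.70% of 16874 genes were called higher and 0.634% lower. Without an adjustment, all 7 had a p under 0.05 in that comparison, as did 47.1% of all genes tested. DESeq2 called 2 higher and 2 lower, against 6.19% and 7.15% of all genes it tested. The median log2 fold change of the 7 was 0.07 in RVO against untreated, 0.20 in control against untreated and −0.25 in RVO against control eyes, beside medians of 0.01, 0.01 and 0.02 over all genes tested, and the 7 moved in both directions in each comparison.

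**Figure D1:**
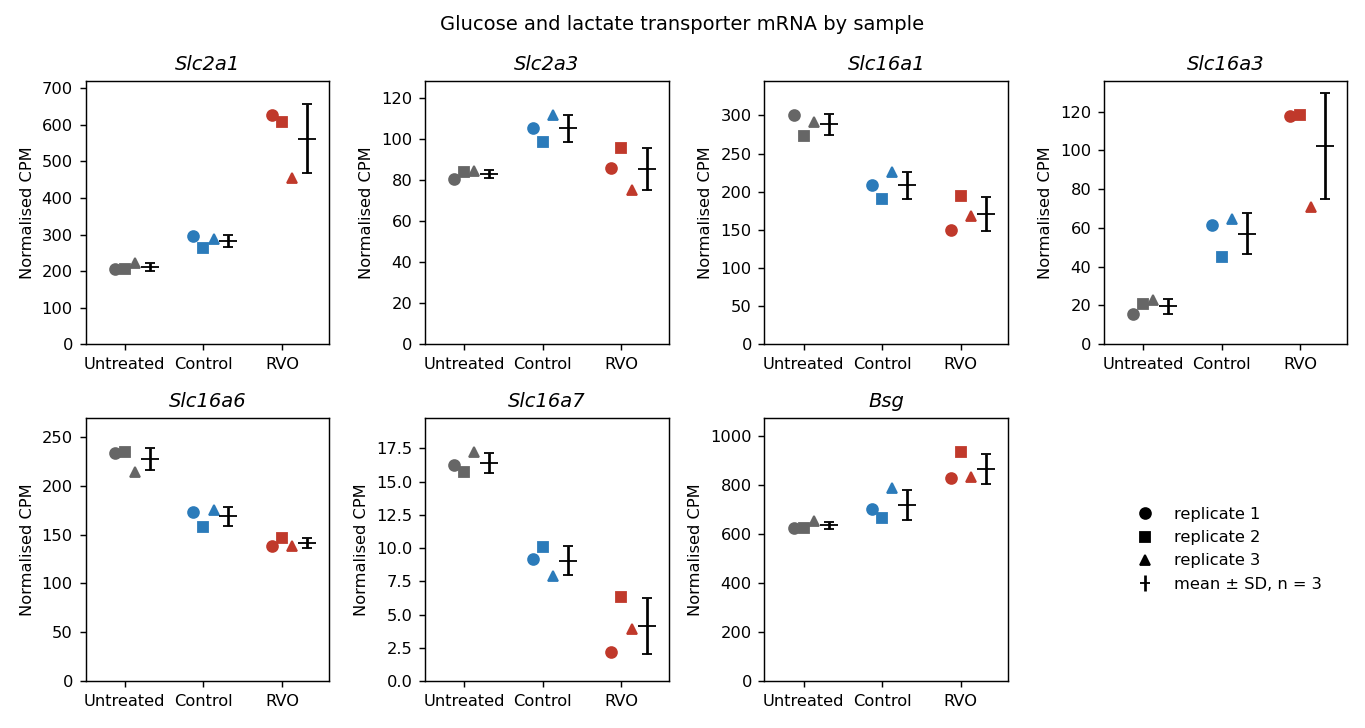
Normalised CPM of the 7 genes (vertical axes, linear and starting at 0) in untreated, control and RVO samples. Symbols are single samples (circle, square and triangle for replicates 1, 2 and 3) and black bars the mean ± SD of 3 samples. Slc2a1 and Slc16a3 stepped up from untreated to control to RVO eyes, Slc16a1, Slc16a6 and Slc16a7 stepped down in their means, and Slc2a3 was highest in control eyes.

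Slc2a1 (chr4:119108711-119137983, plus strand, GRCm38) encodes GLUT1, the main carrier of glucose into the retina. Its level was 626.2, 607.1 and 454.4 CPM in RVO samples, 295.2, 264.2 and 289.0 CPM in control samples and 206.4, 204.9 and 223.5 CPM in untreated samples. The 3 groups did not overlap, and the lowest RVO sample, replicate 3, lay well above the highest control sample. The means were 563 ± 94.1 (SD, n = 3), 283 ± 16.4 and 212 ± 10.3 CPM. Against untreated eyes, Slc2a1 was 2.72-fold higher in RVO eyes (log2 fold change 1.44, SE 0.12, edgeR adjusted p = 3.98e-05) and 1.35-fold higher in control eyes (0.44, SE 0.06, edgeR adjusted p = 3.78e-05). Against control eyes it was 1.99-fold higher in RVO eyes (0.99, SE 0.12, edgeR adjusted p = 0.00758), higher in 3 of 3 samples. Leaving out RVO replicate 1 or 3 or any 1 of the 3 control samples gave adjusted p-values of 0.0166 to 0.0538, with log2 fold changes of 0.90 to 1.12, and it held without RVO replicate 2. In the 5 fits without the call, 0 to 29 of all genes were called higher and 0 lower.

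Slc2a3 (chr6:122727809-122801640, minus strand), which encodes the neuronal glucose transporter GLUT3, did not follow Slc2a1. It measured 85.76, 95.69 and 74.96 CPM in RVO samples, 105.2, 98.42 and 111.5 CPM in control samples and 80.62, 83.99 and 84.36 CPM in untreated samples. Control samples were the highest, and RVO samples lay on both sides of the untreated ones. In control eyes Slc2a3 was 1.28-fold above untreated eyes (log2 fold change 0.36, SE 0.06, edgeR adjusted p = 0.00012). Between RVO and untreated eyes the log2 fold change was 0.07 (SE 0.09, edgeR adjusted p = 0.512), and 2 SE on each side span −0.12 to 0.26. Between RVO and control eyes it was −0.30 (SE 0.10, edgeR adjusted p = 0.0505), a difference that was not called with all samples although the groups did not overlap. Without RVO replicate 2, the highest RVO sample, it was −0.40 with an edgeR adjusted p of 0.00254. The paper's qPCR on the same RNA samples reports Glut3 (Slc2a3) as down-regulated, which the RNAseq counts did not show against untreated eyes.

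Within each sample, the count of Slc2a3 relative to that of Slc2a1 does not depend on how libraries are scaled. The ratio was 0.137, 0.158 and 0.165 in RVO samples, 0.357, 0.372 and 0.386 in control samples and 0.391, 0.410 and 0.378 in untreated samples. RVO samples lay far below both other groups, which overlapped with each other. The geometric mean of the ratio in RVO eyes was 2.57-fold below that of untreated eyes and 2.43-fold below that of control eyes (2-sided exact permutation p = 0.1 each, the smallest that 3 against 3 samples allow, 0.109 adjusted over 12 tests of ratios). Between control and untreated eyes the exact permutation p was 0.2. Per kb of exons, Slc2a1 made up 93.1% ± 0.611 (SD, n = 3) of the sum of both glucose transporters in RVO eyes, 84.8% ± 0.511 in control and 84.0% ± 0.557 in untreated eyes, and that sum was 172.3 ± 28.0, 95.2 ± 5.40 and 71.8 ± 3.10 CPM per kb.

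Slc16a3 (chr11:120948480-120960868, plus strand) encodes MCT4, the lactate exporter of strongly glycolytic cells, and had the largest increase of the 7 against untreated eyes. It measured 117.6, 118.1 and 70.56 CPM in RVO samples, 61.70, 44.86 and 64.71 CPM in control samples and 15.36, 20.80 and 22.73 CPM in untreated samples. The groups did not overlap, but RVO replicate 3 lay close above the highest control sample. Relative to untreated eyes, Slc16a3 was increased 5.30-fold in RVO eyes (log2 fold change 2.41, SE 0.23, edgeR adjusted p = 6.22e-05) and 2.93-fold in control eyes (1.55, SE 0.15, edgeR adjusted p = 1.74e-06). The RVO to control difference of 0.84 on the log2 scale (SE 0.22) was not called (edgeR adjusted p = 0.0244), while DESeq2 gave 0.83 with an adjusted p of 0.00142.

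Slc16a1 (chr3:104638668-104658462, plus strand) encodes MCT1, the widely expressed lactate transporter of photoreceptors, glia and pigment epithelium. It measured 149.7, 194.4 and 167.9 CPM in RVO samples, 208.5, 190.1 and 226.3 CPM in control samples and 300.1, 273.2 and 291.1 CPM in untreated samples. Both laser groups lay below the untreated samples, and RVO replicate 2 overlapped with the lowest control sample. Slc16a1 was 1.65-fold lower in RVO (log2 fold change −0.72, SE 0.10, edgeR adjusted p = 0.000356) and 1.37-fold lower in control eyes (−0.45, SE 0.07, edgeR adjusted p = 7.27e-05) than in untreated eyes. The RVO to control difference of −0.29 on the log2 scale (SE 0.11) was not called (edgeR adjusted p = 0.0737). Without RVO replicate 2 it was −0.41 with an edgeR adjusted p of 0.00357.

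Slc16a7 (chr10:125219270-125389465, minus strand), which encodes the high-affinity transporter MCT2, fell the most of the 7 and was the scarcest. It measured 2.169, 6.334 and 3.917 CPM in RVO samples, 9.189, 10.06 and 7.916 CPM in control samples and 16.27, 15.72 and 17.23 CPM in untreated samples. The groups did not overlap, and RVO samples had the widest spread of any group over the 7 genes, with a coefficient of variation of 50.5%. Slc16a7 was 3.92-fold lower in RVO (log2 fold change −1.97, SE 0.32, edgeR adjusted p = 0.000945) and 1.79-fold lower in control eyes (−0.84, SE 0.11, edgeR adjusted p = 2.87e-05) than in untreated eyes. Against control eyes, the log2 fold change in RVO eyes of −1.14 (SE 0.34) was not called (edgeR adjusted p = 0.0384), and without RVO replicate 2 it was −1.62 with an edgeR adjusted p of 0.000458. The raw counts behind these values were 68 to 149 in RVO and 179 to 241 in untreated samples.

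Slc16a6 (chr11:109450855-109473598, minus strand), the gene of the ketone body transporter MCT7, had the smallest coefficient of variation of the 7 in RVO samples (3.44%). It measured 138.8, 146.9 and 138.2 CPM in RVO samples, 173.0, 157.5 and 175.6 CPM in control samples and 233.7, 234.7 and 214.2 CPM in untreated samples. The groups did not overlap and stepped down from untreated to control to RVO eyes. It was 1.58-fold lower in RVO (log2 fold change −0.66, SE 0.07, edgeR adjusted p = 9.89e-05) and 1.33-fold lower in control eyes (−0.41, SE 0.06, edgeR adjusted p = 5.28e-05) than in untreated eyes. The RVO to control difference of −0.25 on the log2 scale (SE 0.07) was not called (edgeR adjusted p = 0.0248), while it was −0.30 without RVO replicate 2 (edgeR adjusted p = 0.00395) and −0.27 with DESeq2 (adjusted p = 0.00952). Its annotated exons share 1052 bases with Amz2 on the opposite strand, and whether strand was used in counting is not stated. The level of Amz2 was 54.62 to 70.29 CPM in the 9 samples and its log2 fold change in RVO against untreated eyes was 0.24, opposite in sign to that of Slc16a6.

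**Figure D2:**
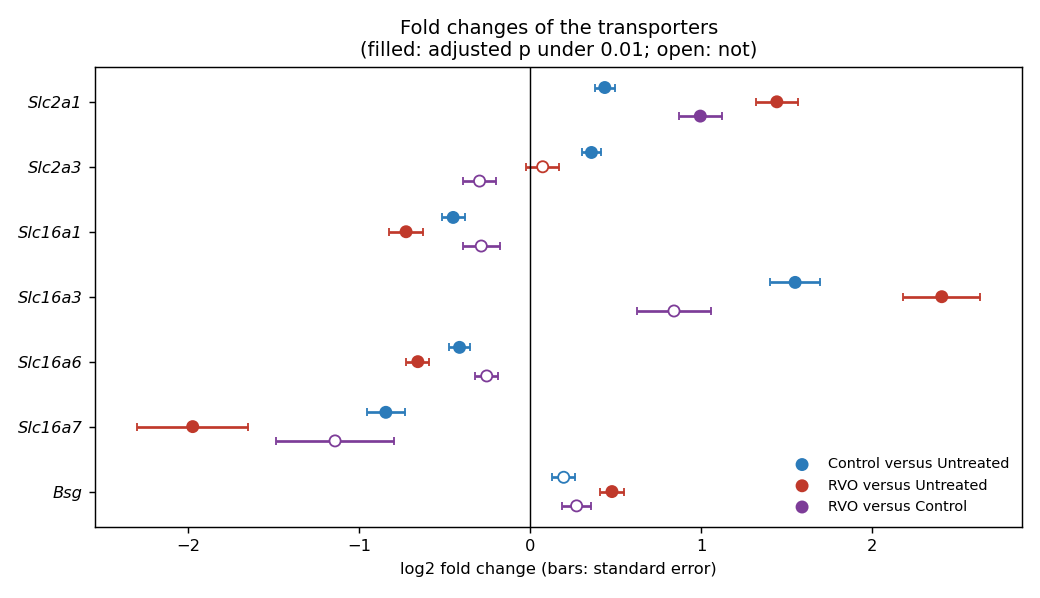
Log2 fold changes (horizontal axis) of the 7 genes in the 3 comparisons, with the standard error as bars. Filled points had an edgeR adjusted p under 0.01 and open points did not, and against control eyes Slc2a1 alone is filled.

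Within samples, the forms of the lactate transporter moved against each other. The ratio of Slc16a3 to Slc16a1 counts was 0.786, 0.608 and 0.420 in RVO samples, 0.296, 0.236 and 0.286 in control samples and 0.0512, 0.0761 and 0.0781 in untreated samples. The 3 groups were separate, and the geometric mean exceeded that of untreated eyes 8.70-fold in RVO and 4.03-fold in control eyes, and RVO eyes exceeded control eyes 2.16-fold (2-sided exact permutation p = 0.1 each, 0.109 adjusted). The ratio of Slc16a3 to Slc16a7 was 54.3, 18.6 and 18.0 in RVO samples, 6.71, 4.46 and 8.18 in control samples and 0.944, 1.32 and 1.32 in untreated samples. The groups were again separate, RVO replicate 1 stood apart from the other two, and RVO eyes exceeded untreated eyes 22.3-fold (exact permutation p = 0.1). Per kb of exons, the share of Slc16a3 in the sum of Slc16a1, Slc16a3 and Slc16a7 was 39.4%, 33.3% and 25.7% in RVO samples, 19.5%, 16.2% and 19.0% in control samples and 4.01%, 5.84% and 5.98% in untreated samples. The sum itself was 58.1 ± 7.75 (SD, n = 3) in RVO, 58.6 ± 5.91 in control and 70.2 ± 2.79 CPM per kb in untreated eyes, and RVO and control samples overlapped in it.

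**Figure D3:**
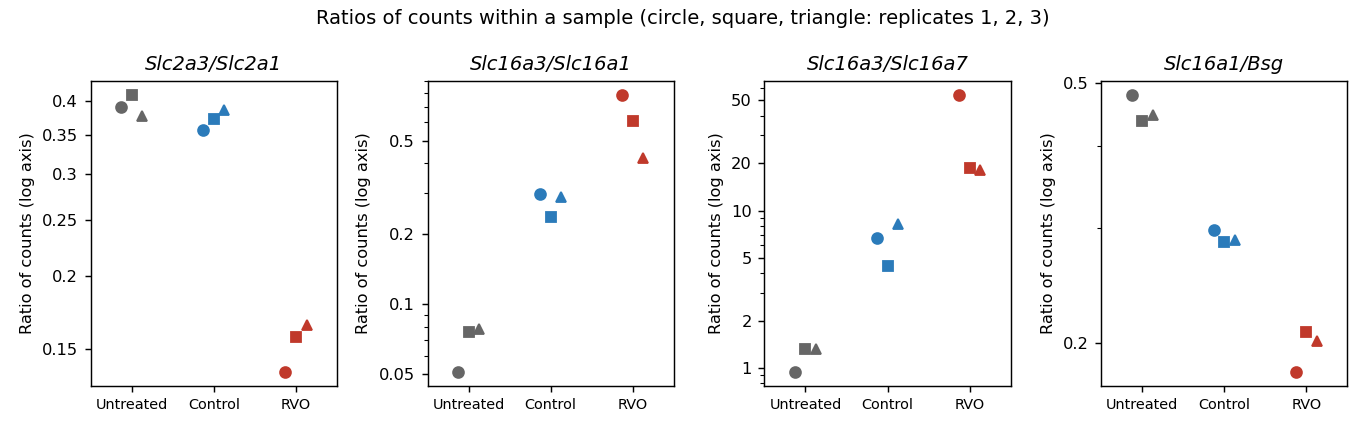
Ratios of read counts between pairs of transporters in each sample, on log axes, in untreated, control and RVO eyes. Circle, square and triangle stand for replicates 1, 2 and 3. The groups are separate in all 4 ratios except control and untreated eyes for Slc2a3/Slc2a1.

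Bsg (chr10:79704491-79711969, plus strand), the chaperone of MCT1 and MCT4, was the most abundant of the 7 in every group. It measured 829.2, 934.7 and 832.8 CPM in RVO samples, 700.9, 666.8 and 787.2 CPM in control samples and 626.1, 626.0 and 652.6 CPM in untreated samples. The groups did not overlap, although control and untreated samples came close. RVO eyes had 1.39-fold more Bsg than untreated eyes (log2 fold change 0.48, SE 0.07, edgeR adjusted p = 0.000506). The log2 fold change was 0.20 (SE 0.07, edgeR adjusted p = 0.0195) between control and untreated eyes and 0.27 (SE 0.08, edgeR adjusted p = 0.0424) between RVO and control eyes, and neither was called. The first of these was called with DESeq2 (adjusted p = 0.00712) and without control replicate 2 (edgeR adjusted p = 0.00608). Since Bsg and its client Slc16a1 went in opposite directions, the ratio of Slc16a1 to Bsg counts was 0.197 ± 0.0144 (SD, n = 3) in RVO, 0.290 ± 0.00655 in control and 0.454 ± 0.0225 in untreated eyes, with no overlap (exact permutation p = 0.1 for each pair).

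In total, 6, 7 and 6 of the 7 genes had groups that did not overlap in RVO against untreated, control against untreated and RVO against control eyes, where this held for 73.4%, 70.0% and 52.5% of all genes tested.

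Per kb of exons (union of all annotated exons), the order of levels in untreated eyes was Bsg (350 CPM per kb), Slc16a1 (65.1), Slc2a1 (60.4), Slc16a6 (46.6), Slc2a3 (11.5), Slc16a3 (3.69) and Slc16a7 (1.39). Slc16a1 and Slc2a1 overlapped between samples, and every other neighbour in this order was separate. In control eyes the order was Bsg (396), Slc2a1 (80.7), Slc16a1 (47.1), Slc16a6 (34.6), Slc2a3 (14.5), Slc16a3 (10.7) and Slc16a7 (0.765). In RVO eyes it was Bsg (477), Slc2a1 (160.5), Slc16a1 (38.6), Slc16a6 (28.9), Slc16a3 (19.2), Slc2a3 (11.8) and Slc16a7 (0.35 CPM per kb). Neighbours were separate in all samples of both laser groups. Slc2a1 thus passed Slc16a1 and Slc16a3 passed Slc2a3, and the order within each group was the same when the longest transcript was used as the length.

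**Figure D4:**
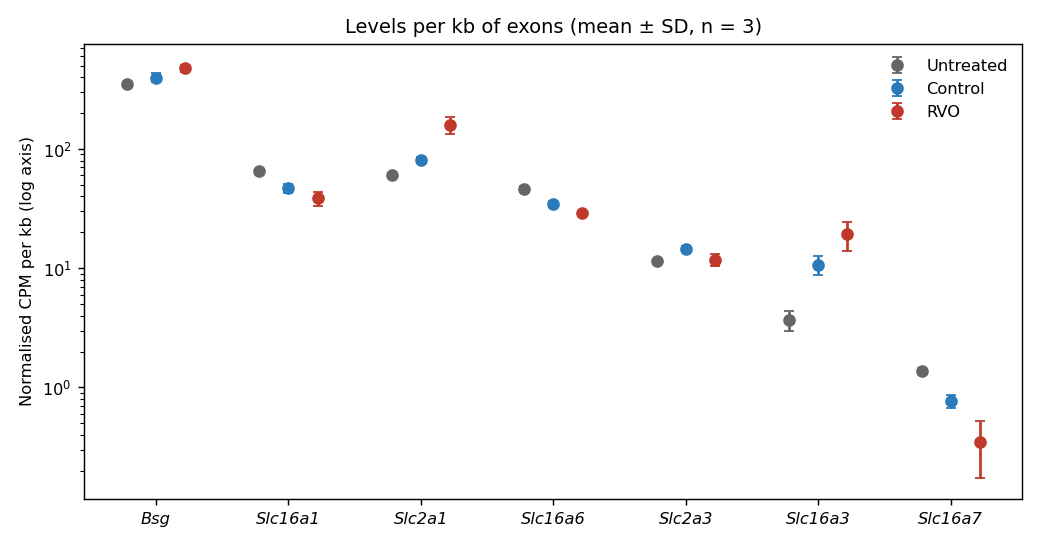
Levels of the 7 genes in CPM per kb of exons on a log axis, as mean ± SD of 3 samples in untreated, control and RVO eyes, ordered by the level in untreated eyes. Slc16a3 rises from 3.69 to 19.2 and Slc16a7 falls from 1.39 to 0.35 CPM per kb between untreated and RVO eyes.

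The genes whose pattern over the 9 samples was most like each transporter were found by the root mean square (RMS) difference of centred log2 CPM. For Slc2a1 they were Gys1, the glycogen synthase (RMS 0.129), Hilpda, a lipid droplet protein (0.152), and H2-Q2 (0.159). Gys1 averaged 55.8 CPM in RVO, 26.3 in control and 17.3 in untreated eyes. For Slc16a3 they were the cytokine Mif (0.227), the leukocyte myosin Myo1f (0.253) and the cell cycle factor E2f1 (0.265), which were less close. Mif averaged 52.0 CPM in RVO, 32.5 in control and 11.1 in untreated eyes. Slc2a3 was closest to Cry2 (0.0489), Slc44a2 (0.0538) and Tmem181b-ps (0.0546), and Bsg to Bhlhe41 (0.0774), Epn2 (0.0774) and Alkbh5 (0.0797). Among the genes that fell, Slc16a1 was closest to Zc4h2, Uhmk1 and Rufy3 (RMS 0.0545 to 0.0591), Slc16a6 to Nol4l, Dusp11 and Bbs9 (0.0287 to 0.0439) and Slc16a7 to Folh1, Fut9 and Rab9b (0.107 to 0.116). Within the 7, Slc16a1 and Slc16a6 were the closest pair (0.0965), and Slc16a3 and Slc16a7 the farthest apart (1.81).

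The other transporters of both families also moved in both directions. Of 12 other glucose transporter genes, 9 were tested in RVO against untreated eyes, of which 2 rose and 2 fell. Their median was 0.40 on the log2 scale. Of all genes tested, 27.4% were called higher and 24.6% lower in that comparison, and 27.2% and 25.2% in control against untreated eyes. Slc2a10 (log2 fold change 3.13) and the intracellular transporter gene Slc2a8 (1.41) were higher, and the fructose transporter gene Slc2a5 (−3.16) and the myo-inositol transporter gene Slc2a13 (−1.42) were lower. Slc2a10 was near the floor in untreated samples (0.0909, 0.156 and 0.143 CPM). It passed the filter only through RVO samples, so it could only be called higher. In control against untreated eyes 3 of 8 were higher and 2 lower, among them Slc2a4, the insulin-responsive transporter gene (1.72), Slc2a8 (1.47), Slc2a6 (1.28) and Slc2a5 (−2.09). All but Slc2a8 and Slc2a13 had a mean of 8 CPM or less in every group, and 0 of 8 were called in RVO against control eyes, where Slc2a13 had a log2 fold change of −0.97 (edgeR adjusted p = 0.015). Against Slc2a1 at 454.4 to 626.2 CPM in RVO samples, Slc2a8 was at 18.15 to 18.84 CPM.

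Of 12 other monocarboxylate transporter genes, 11 were tested, of which 3 rose and 2 fell in RVO relative to untreated eyes. The shares over all genes tested were 27.4% higher and 24.6% lower there, and 27.2% and 25.2% in control against untreated eyes. Slc16a8 (log2 fold change 1.13, SE 0.22, edgeR adjusted p = 0.00228), which encodes the lactate transporter MCT3 of the pigment epithelium, was higher. Slc16a4 (−0.95) and Slc5a8 (−2.59), a sodium-coupled carrier of lactate, were lower. In control against untreated eyes 4 of 11 were higher and 2 lower, among them Slc16a11 (1.59), Slc16a8 (1.24) and Slc5a8 (−0.88).

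The relatives of Bsg did not follow it. Nptn, which encodes neuroplastin, measured 180.9, 216.1 and 192.6 CPM in RVO and 424.7, 441.9 and 410.7 CPM in untreated samples, and was lower in both RVO (log2 fold change −1.08, edgeR adjusted p = 2.38e-05) and control eyes (−0.69). Emb, which encodes embigin, the usual partner of MCT2, was lower in RVO (−1.31, edgeR adjusted p = 0.000495) and in control eyes (−0.70), as Slc16a7 was. Thus 2 of 2 relatives were lower against untreated eyes in both comparisons and 0 were called against control eyes. Over all genes tested, 24.6% were lower in RVO and 25.2% in control against untreated eyes.

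Of 13 genes for enzymes and regulators of glucose and lactate use, 5 rose and 2 fell in RVO relative to untreated eyes. The shares over all genes tested were 27.4% higher and 24.6% lower there. They were 27.2% and 25.2% in control against untreated eyes, and 2.70% and 0.634% in RVO against control eyes. Hk1 (log2 fold change 1.06), the first enzyme of glycolysis, and Txnip (1.01), whose product removes GLUT1 from the membrane, were higher. Ldhb (−1.01), the lactate dehydrogenase subunit of tissues that use lactate, and Nxnl1 (−1.44), whose rod-derived product binds the photoreceptor form of basigin, were lower. Ldha, the subunit of lactate-producing tissues, was higher (0.69, edgeR adjusted p = 0.000272), and it is named, as are Pfkfb3 and Pkm, the others that were higher, outside the naming rule and after its values were seen. The paper's qPCR on the same RNA samples reports Ldha as down-regulated, the opposite direction. In control against untreated eyes 3 of 13 were higher and 3 lower, among them Hk1 (0.60), Nxnl1 (−0.59) and the mitochondrial pyruvate carrier gene Mpc2 (0.57). Against control eyes 1 of 13 was called (0 with RLE factors and 4 with DESeq2), Txnip, at 21.65, 19.89 and 25.22 CPM in RVO and 13.94, 13.00 and 13.03 CPM in control samples (0.74, SE 0.11, edgeR adjusted p = 0.00944).

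A list of 9 reference genes known to respond to low oxygen was set beside the transporters. It was chosen with earlier results of these data known. Car9, Adm, Ndufa4l2 and Egln3 are among the genes that the paper lists as most raised in RVO against control eyes. Their calls in that comparison are therefore not independent support. Between RVO and control eyes 6 of the 9 were called higher and 0 lower (median 1.14 on the log2 scale), led by Car9 (3.58), Adm (3.08), Ndufa4l2 (2.48) and Egln3 (2.18). Of all genes tested, 2.70% were called higher and 0.634% lower there, and 27.2% and 25.2% in control against untreated eyes. The number of the 9 called higher was 4 with RLE or upper quartile factors and 7 with DESeq2. It was 0 with the replicate block, where 0 of all genes were called. In control against untreated eyes 3 were higher (Adm, Car9 and Ndufa4l2) and 3 lower (Bnip3, Kdm3a and P4ha1), with a median of −0.03, so that list did not move one way there. Slc2a1 had a log2 fold change of 0.99 in RVO against control eyes, between those of P4ha1 (0.67) and Vegfa (1.14). The 9 genes ranged from 0.28 (Ankrd37) to 3.58 (Car9), and a cause shared with Slc2a1 was not tested. RVO replicate 3, the lowest RVO sample for Slc2a1 and Slc16a3, was also the lowest for 7 of the 9 genes, such as Egln3 (49.11, 29.88 and 23.86 CPM in replicates 1 to 3). For Car9 (10.68, 5.824 and 7.571 CPM) and Adm (37.47, 23.00 and 24.87 CPM), which led the list, replicate 2 was the lowest.

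**Figure D5:**
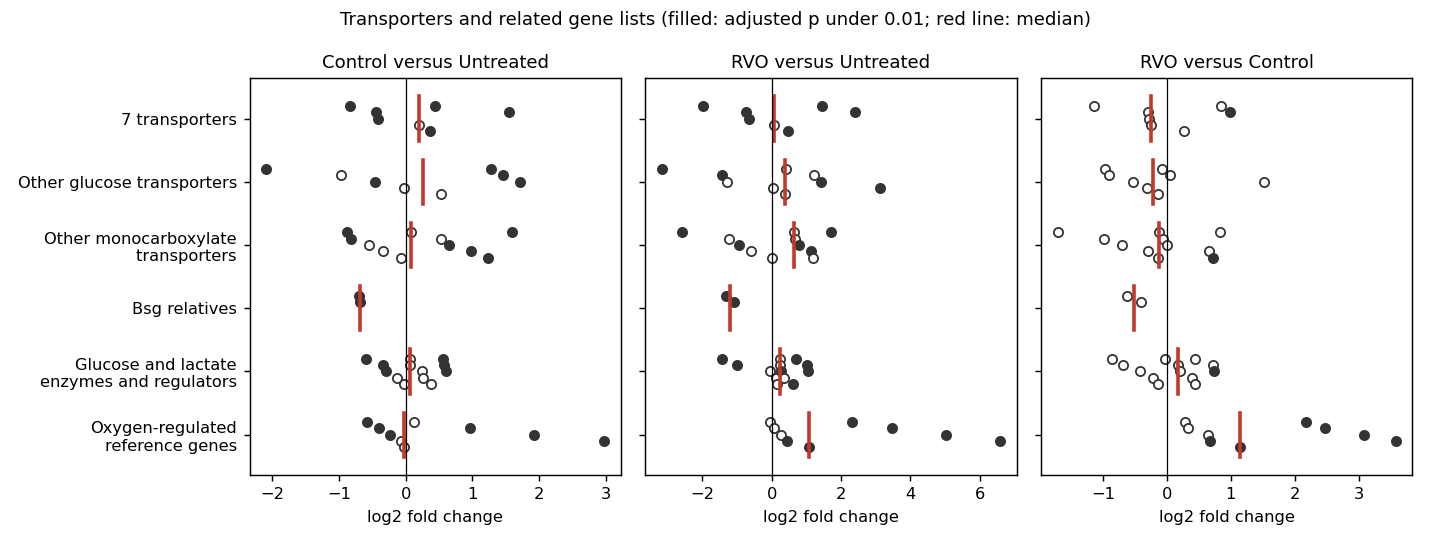
Log2 fold changes (horizontal axes) of the 7 transporters and the 5 related lists in the 3 comparisons. Each point is 1 tested gene, filled where the edgeR adjusted p was under 0.01, and red lines are list medians. In RVO against control eyes 6 of 9 oxygen-regulated genes but 1 of 7 transporters are filled, counts that hold for the main test and changed with the processing.

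Markers of cell types moved with these groups, and their part in the results was not tested. Over all genes tested, 27.4% were called higher and 24.6% lower in RVO against untreated eyes. In control against untreated eyes the shares were 27.2% and 25.2%. Rod markers (8 of 8 lower in RVO against untreated eyes) had summed levels of 44800 to 48750 CPM in RVO samples, of 55010 to 67100 CPM in control samples and of 85980 to 87760 CPM in untreated samples. Cone markers (5 of 7 lower) had sums of 494 to 761, 940 to 1210 and 1511 to 1586 CPM in the same order. Mueller glia markers (3 of 6 lower) had sums of 1525 to 2290, 2679 to 3303 and 4335 to 4584 CPM. Most of the last step came from Glul, whose mean was 2601 CPM in untreated and 1255 CPM in control samples. In the same list Kcnj10 was higher in control than untreated eyes (log2 fold change 0.49, edgeR adjusted p = 0.00109), and Dkk3 averaged 808.8 and 808.5 CPM.

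Monocyte and macrophage markers were higher in 7 of 7 against untreated eyes, with sums of 117.1 to 144.8 CPM in RVO samples, 51.1 to 70.1 CPM in control samples and 15.1 to 18.4 CPM in untreated samples, the order of groups seen for Slc16a3. Ly6c2 was at 0 in all untreated samples. Neutrophil markers were higher in 5 of 5 tested and had sums of 46.8 to 104.5 CPM in RVO samples, 8.38 to 24.8 CPM in control samples and 0.469 to 1.18 CPM in untreated samples, in which Cxcr2, Ly6g, Retnlg and Mmp8 were at 0. Genes at or near 0 in untreated samples could pass the filter only through the laser groups, so they could only be called higher. Microglia markers (3 of 5 lower) summed to 5.52 to 14.5, 19.4 to 22.1 and 41.8 to 70.6 CPM. Erythroid markers (2 of 5 tested higher) reached 196.7 CPM in RVO replicate 1, against 14.6 to 15.2 CPM in untreated samples.

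Endothelial markers, which mark the cells with much GLUT1, were higher in 3 of 9 in RVO and 7 of 9 in control against untreated eyes, and 0 of 9 were called in RVO against control eyes. Their sum was 230.5 to 370.8 CPM in RVO samples, 422.0 to 469.3 CPM in control samples and 260.3 to 268.6 CPM in untreated samples. Much of the gap between RVO and control sums was in Kdr (means of 148.4 and 253.8 CPM), the most abundant of these markers. Cldn5 (5.50 and 15.75 CPM), Esam (8.59 and 19.51), Tek (3.15 and 6.98) and Tie1 (3.87 and 7.18) also had lower means in RVO samples. Pecam1 (16.3 and 15.5 CPM) and Cdh5 (10.2 and 9.71 CPM) were at like levels in both. The list's median log2 fold change in RVO against control eyes was −0.77. Pigment epithelium markers (1 of 7 higher and 1 lower in RVO against untreated eyes) summed to 221.4 to 414.3, 256.3 to 291.5 and 341.1 to 368.0 CPM, and RVO samples lay on both sides of control and untreated ones.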

How the data were processed

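Poly-A RNA of retinas was sequenced as stranded libraries. The authors mapped single reads of 50 bases with STAR 2.5.2b to the mouse genome (Gencode vM11, build GRCm38) and deposited raw counts per gene from featureCounts (Subread 1.5.1). Strand setting and treatment of reads matching several genes are not given in the sources used here, so genes with overlapping neighbours or copies are less certain. The 92 spike-in names were left out.

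Samples were grouped by their labels. Groups were compared in pairs with filterByExpr, TMM factors and the test of edgeR 4.0.16 in R 4.3.3 (quasi-likelihood, Benjamini-Hochberg adjustment). Ratios within samples were compared by exact permutation. For likeness, 0.5 was added to CPM before log2. Exon lengths and coordinates came from GENCODE vM21 (GRCm38), promoters from RefSeq (GRCm38.p6). Scripts were tested on simulated data. Alternatives were DESeq2 1.42.0, other scaling, no filter, 1 fit of all 9 samples, a replicate block and leaving out each sample.

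The 7 genes and all lists were chosen with earlier results of these data known. Of each related list, at most 4 called members with the largest fold change were named, and the 3 most alike genes per transporter. Some members of the related lists are counted but not reported by name here.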

Additional observations from a re-analysis of the deposited data

How the results depend on the processing

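The signs of the log2 fold changes of the 7 transporters were kept under all alternatives. Against untreated eyes, every call with all samples was kept when any 1 sample was left out, and only Slc16a7 in control eyes lost its call in another setting, the single fit of all 9 samples (edgeR adjusted p = 0.0239). Bsg in control against untreated eyes became called without TMM scaling, without a filter, with DESeq2 and with the replicate block. The comparison of RVO with control eyes, with 1 transporter called higher and 0 lower, depended most on the processing. The number called higher was 3 at an adjusted p under 0.05 (which 34.6% of all genes passed in either direction), 2 without a filter and 2 with DESeq2, and 0 to 1 when 1 sample was left out. The number called lower was 2 at an adjusted p under 0.05, 2 with DESeq2, and 0 to 4 when 1 sample was left out, where 4 came without RVO replicate 2 (Slc2a3, Slc16a1, Slc16a6 and Slc16a7). Over all genes, that comparison had 456 called higher and 107 lower with all samples, 1842 and 2125 with DESeq2, 2942 and 3315 without RVO replicate 2, and 0 to 29 and 0 when any other sample was left out.

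The labels do not say whether RVO and control samples with the same number came from the same mice. Same-numbered RVO and control samples had correlations of −0.169, −0.158 and 0.0949 of their deviations from the group means. With 3 samples per group, these values cannot show whether the samples were paired, and the main test used no pairing. With the replicate block, the number of transporters called higher in RVO against control eyes was 0, and 0 genes in all were called in either direction against 4203 at an adjusted p under 0.05 and 7227 at an unadjusted p under 0.05. Leaving out TMM scaling moved the median of all genes from 0.01 to 0.22 in RVO and from 0.01 to 0.19 in control against untreated eyes, and the split of higher to lower calls from 4492 to 4037 to 5967 to 2741 in RVO and from 4371 to 4045 to 5902 to 2484 in control eyes. The number of counts limits Slc16a7 most.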
